A study of Mus musculus with 48 samples.

Results

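The Hippo kinase cassette and its upstream regulators were followed across the series as 10 genes: the kinases Stk3 (MST2), Stk4 (MST1), Lats1 and Lats2, their adaptors Sav1, Mob1a and Mob1b, and the upstream regulators Nf2 (Merlin), Wwc1 (Kibra) and Amotl1. The genes were chosen by symbol, and all 10 were found among the 34932 genes to which the deposited transcripts were assigned. The mice were C57BL/6 and 6 to 10 weeks old, and carried B16F10 melanomas, a transplanted mouse tumor line, grown under the skin for about 15 days. The Yap-cKO mice were Yap-loxP/loxP; LSL-EYFP; CD4-Cre, and the WT mice were littermates, for which the sources used here do not say which of these alleles they carried. The Cd4-driven Cre acts from the double-positive stage of thymic development, so it acts in CD4+ and CD8+ T cells alike. CD4+, CD8+ and CD45+CD4-CD8- cells were sorted from tumors (tumor-infiltrating lymphocytes, TILs) and from tumor-draining lymph nodes (TDLNs), which gave 12 groups of 4 libraries, 48 in all.

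In the Hippo pathway, MST kinases bound to the scaffold SAV1 phosphorylate the LATS kinases and their MOB1 co-activators, and active LATS then phosphorylates YAP and TAZ, which are held in the cytoplasm and degraded. NF2, KIBRA and the angiomotins work above or beside the kinases at membranes and cell junctions, in epithelia above all. In T cells MST1 is best known apart from YAP: it acts with MOB1 and RASSF5 in adhesion, migration and egress from the thymus, and its loss in humans and mice depletes naive T cells.

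Depth ranged from 12656302 to 24213689 counts per library (median 17870047.5), so that 3 counts, taken as the floor in a library, corresponded to 0.124 to 0.237 CPM (counts scaled to the depth of a library). The sort markers were as labelled: Cd4 averaged 333 to 1035 CPM in the CD4+ groups and at most 3.67 CPM in the CD8+ groups. Yap1, the floxed gene, ranged from 14.8 to 27.3 CPM in WT CD4+ TILs and from 1.63 to 5.58 CPM in Yap-cKO CD4+ TILs, and in CD8+ TILs the WT range was 12.95 to 27.1 CPM and the Yap-cKO range 2.37 to 6.37 CPM. In TDLN T cells it was low in both genotypes (23 to 42 counts in 8 WT libraries and 17 to 93 in 8 Yap-cKO libraries), and there the genotypes overlapped. In CD45+CD4-CD8- TILs the Yap1 range was 2.74 to 5.32 CPM in WT and 1.52 to 2.03 CPM in Yap-cKO mice. The part of the deletion in T cells in these TIL differences was not tested. The tumor T-cell libraries of WT mice also held far more melanoma RNA: 9 pigment-cell markers (Pmel, Mlana, Tyr and others) summed to 5808 to 18122 CPM in WT CD4+ TILs against 170 to 2392 CPM in those of Yap-cKO mice, and to 3972 to 14289 against 40.4 to 2591 CPM in CD8+ TILs, whereas group means in TDLNs lay between 8.59 and 19.7 CPM. Summed T-lineage markers (15 genes) were correspondingly lower in WT TILs (4323 against 7862 CPM in CD4+ and 3467 against 6384 CPM in CD8+ cells; two-sided exact permutation p = 0.0286 in each, the smallest that 4 against 4 libraries allow). The 4 Y-linked genes measured summed to at least 43.3 CPM in 18 of 24 WT libraries. They summed to at most 19.0 CPM in all 24 Yap-cKO libraries. Y-linked RNA thus moved with genotype, except in WT replicate 4 of each of the 6 WT groups (2.51 to 8.80 CPM). Apart from that replicate, genotype and Y-linked RNA, a mark of sex, cannot be told apart.

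To see which parts of the cassette T cells hold themselves, levels were first read in the 16 TDLN T-cell libraries, where melanoma RNA was nearly absent. The deposited TPM values, which take transcript length into account, were used to compare genes with each other. Stk4 was the most abundant member, with a median of 185 TPM (93.4 to 313), followed by Mob1a with 82.6 TPM, Lats2 with 39.0 TPM and Nf2 with 18.3 TPM. Mob1b (5.92 TPM), Lats1 (4.70 TPM), Sav1 (2.95 TPM) and Stk3 (2.07 TPM) formed a low tier in which ranges overlapped. Wwc1 (0.120 TPM) and Amotl1 (0.0442 TPM) were at the edge of detection: across these 16 libraries Wwc1 had 3 to 20 counts and Amotl1 0 to 23 counts, with 2 and 3 libraries at or under the floor. The other 8 members were above the floor in all 48 libraries.

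The makeup of the cassette was steady among TDLN T cells. Stk4 supplied 55.0% ± 3.15 (SD, n = 4) of the members' summed TPM in WT CD4+ cells, 55.1% ± 1.27 in WT CD8+ cells, 55.8% ± 1.04 in Yap-cKO CD4+ cells and 55.4% ± 1.40 in Yap-cKO CD8+ cells. In CD45+CD4-CD8- cells of the same nodes the share of Stk4 was 32.7% ± 1.42 in WT and 34.0% ± 4.17 in Yap-cKO mice, and Lats2 took a larger part (26.5% ± 5.46 and 24.7% ± 4.90, against 11.1% to 12.4% in the T-cell groups). In CD45+CD4-CD8- cells from tumors, a myeloid-rich population, Mob1a and not Stk4 was the leading member (43.9% ± 2.14 in WT and 45.4% ± 2.16 in Yap-cKO mice).

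**Figure D1:**
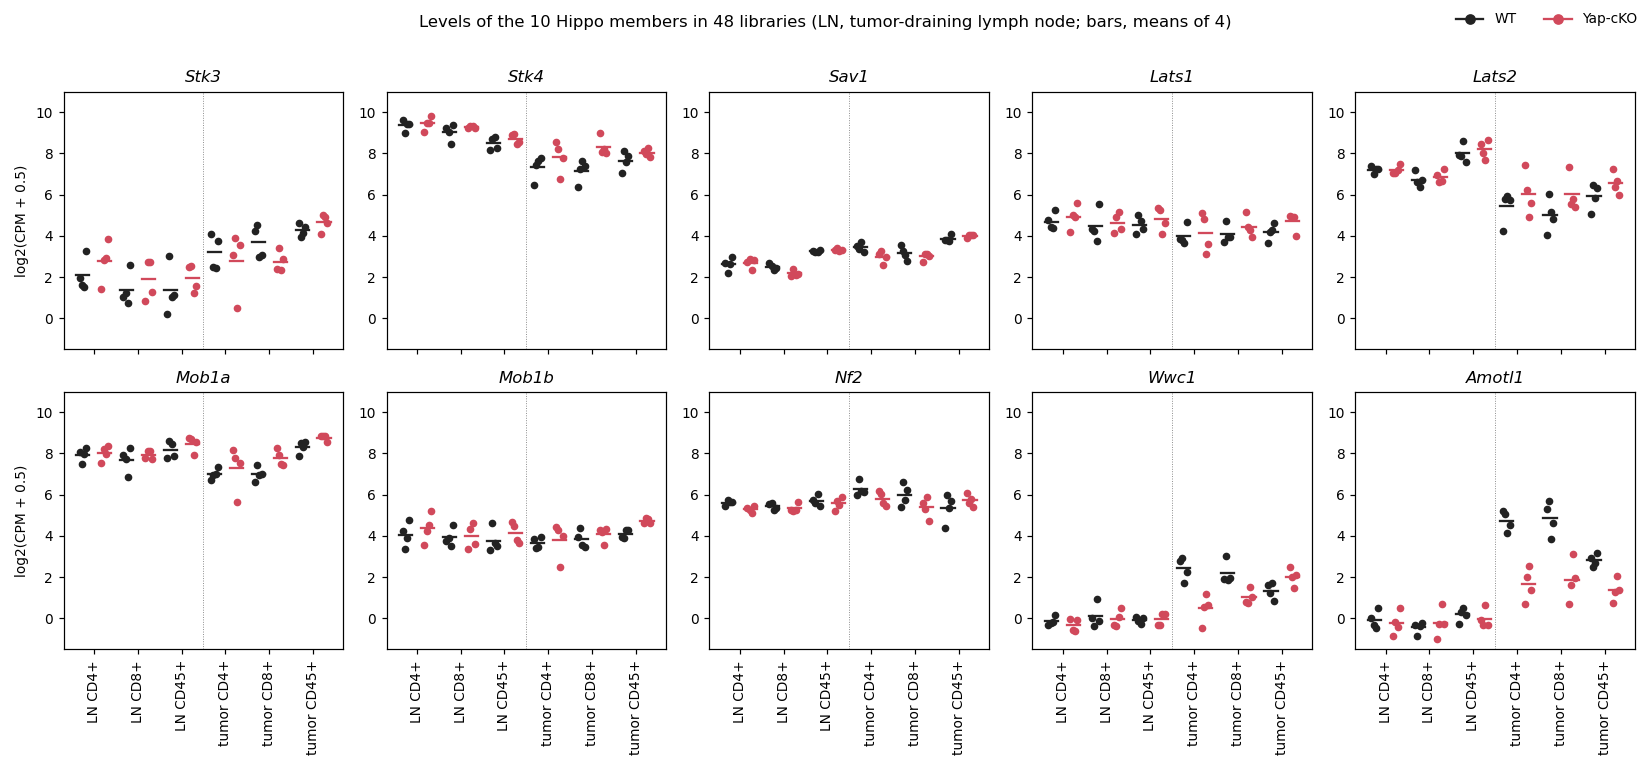
Levels of the 10 members in every library, as log2(CPM + 0.5) on the vertical axis, with 1 point per library and a bar at the mean of each group of 4; LN stands for TDLN and CD45+ for CD45+CD4-CD8- cells. Amotl1 and Wwc1 lie near the bottom of the scale in all TDLN groups and are highest in WT T-cell TILs, and Stk4 is highest in TDLN T cells.

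Each pair of paralogs was lopsided. By TPM, Stk4 exceeded Stk3 by a mean of 57.2-fold to 133-fold in the TDLN groups, with wide ranges (31.6 to 266 among Yap-cKO T-cell libraries), but by only 6.70-fold ± 2.38 in WT and 5.55-fold ± 1.24 in Yap-cKO CD45+CD4-CD8- cells from tumors. Mob1a exceeded Mob1b by 8.84-fold to 20.7-fold and Lats2 exceeded Lats1 by 3.45-fold to 18.2-fold (group means). Thus in all 12 groups the same paralog of each pair had the higher mean.

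Stk3, though low, showed a difference in transcript use between populations. Its main annotated coding transcripts, Stk3-201 and Stk3-205, start at separate first exons on the minus strand of chromosome 15 (GRCm38), 23115 bases apart. Stk3-205 begins upstream, with a first exon of 96 bases at chr15:35178826-35178921, and Stk3-201 begins with a first exon of 280 bases at chr15:35155527-35155806. Both have 11 exons, and their coding sequences (1485 and 1491 bases) share the last 1465 bases, so they differ only in the first codons. The first 80 coding bases of each are shown because the opening bases are what tells the transcripts apart. Capitals mark the bases of each transcript's own first exon (20 in Stk3-205 and 26 in Stk3-201) and lower case the shared bases:
Stk3-201: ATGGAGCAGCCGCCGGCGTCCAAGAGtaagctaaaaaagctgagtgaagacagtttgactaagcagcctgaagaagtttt
Stk3-205: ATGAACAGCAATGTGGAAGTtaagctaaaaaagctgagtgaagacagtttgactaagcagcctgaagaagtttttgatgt

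The upstream start was read almost entirely in T cells. Stk3-205 had an estimated 27.8 to 122 reads in the 8 CD4+ TDLN libraries (median share of Stk3 TPM 46.6%) and 14.1 to 88.7 reads in the 8 CD8+ TDLN libraries (median share 67.1%). It had less than 1 read in 14 of 16 CD45+CD4-CD8- libraries but in only 2 of 32 T-cell libraries. The exceptions were replicates 2 and 4 of WT CD45+CD4-CD8- TDLN cells on one side, with 1.82 and 15.04 reads, and WT CD4+ TIL replicate 4 and Yap-cKO CD4+ TIL replicate 3 on the other. Stk3-201 was read in both populations, most in the 8 CD45+CD4-CD8- TIL libraries (210 to 530 reads, median share 89.2%). In T-cell TILs it had 11.3 to 395 reads, with a median share of 48.6% in CD4+ and 53.4% in CD8+ cells. In TDLNs it had 0 to 96.2 reads in CD4+ cells (median share 22.5%), 0 to 33.6 reads in CD8+ cells (median share 2.72%) and 0.777 to 139 reads in CD45+CD4-CD8- cells (median share 62.8%). In T-cell TILs the median share of Stk3-205 was 27.7% in CD4+ and 23.0% in CD8+ cells. These are Salmon's estimates for transcripts that share most of their sequence, in libraries of low Stk3 counts, and they are given as a description without a test.

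**Figure D2:**
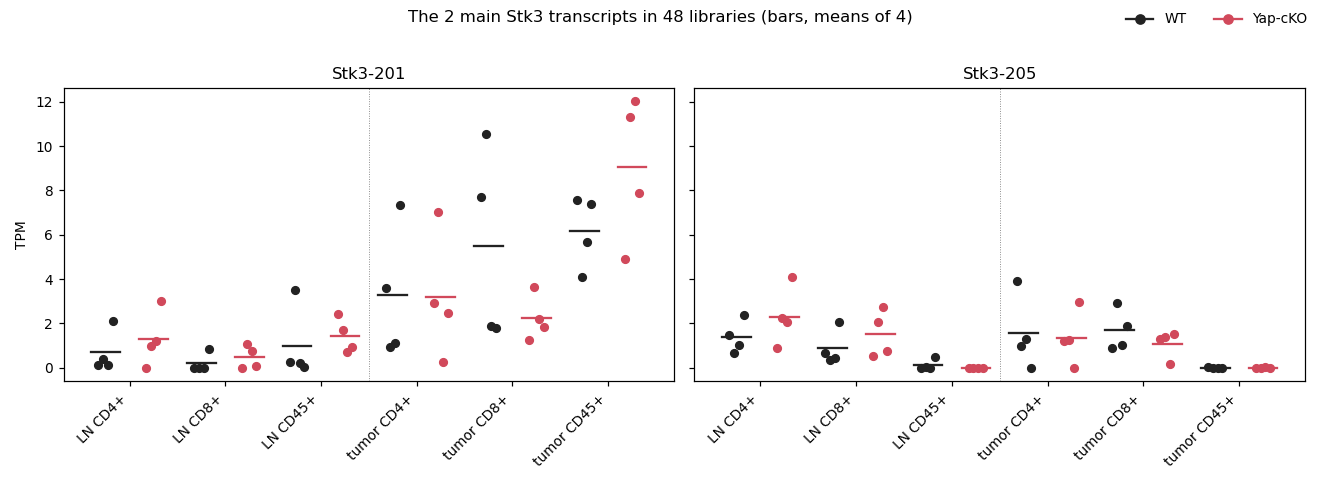
TPM of Stk3-201 (left) and Stk3-205 (right) in each of the 48 libraries, by genotype, sorted population and tissue, with bars at the means of 4; LN stands for TDLN and CD45+ for CD45+CD4-CD8- cells. Stk3-205 is at or near 0 in CD45+CD4-CD8- cells apart from a WT TDLN library at 0.465 TPM, and lies between 0.343 and 4.07 TPM in TDLN T cells.

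TDLN T cells were then compared with CD45+CD4-CD8- cells of the same nodes, the leukocytes without either co-receptor. Lats2 was the member called in this comparison: it was higher in CD45+CD4-CD8- cells in both genotypes (1 of 9 members tested in each, against 25.2% of all genes tested in WT and 24.3% in Yap-cKO mice; called means an adjusted p under 0.05 and a log2 change above 1 in size). In WT mice Lats2 had 242, 237, 389 and 191 CPM in CD45+CD4-CD8- cells, 166, 126, 151 and 151 CPM in CD4+ cells and 146, 97.2, 81.8 and 105 CPM in CD8+ cells. All 4 CD45+CD4-CD8- values lay above all 8 T-cell values, and 22.4% of genes tested likewise did not overlap. The log2 difference was 1.07 (SE 0.196, adjusted p = 0.000666, edgeR quasi-likelihood test). Without WT CD45+CD4-CD8- replicate 3 the difference was 0.86 (adjusted p = 0.0046) and no longer met the fold threshold. In Yap-cKO mice it was 1.21 (SE 0.200, adjusted p = 0.000212). Sav1, the MST scaffold, was also higher there by adjusted p alone (log2 difference 0.75 in WT and 0.94 in Yap-cKO mice), and Stk4 was lower (-0.71 and -0.66), where 32.3% of genes tested met that rule in each genotype. For Mob1a, Mob1b, Lats1, Nf2 and Stk3 adjusted p exceeded 0.05 in both genotypes.

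Expressed as a share of the CD45+CD4-CD8- level, Stk4 in TDLN T cells stood at 147% to 183%, Mob1b at 90.6% to 123%, Lats1 at 85.5% to 111%, Nf2 at 81.1% to 92.4%, Mob1a at 68.0% to 84.4%, Sav1 at 42.4% to 63.3% and Lats2 at 38.8% to 56.1% (CPM, over the 4 T-cell groups). In the same libraries B-cell markers stood at 0.459% to 1.49% and myeloid markers at 1.12% to 6.40% of the CD45+CD4-CD8- sum. Lists that were low in both populations had shares as high as the members: melanoma markers stood at 45.5% to 155%, fibroblast markers at 123% to 357% and pericyte markers at 23.9% to 337%, with sums of at most 19.7 CPM. For Stk3 the shares were 85.5% to 205%. Between CD4+ and CD8+ TDLN cells 0 members were called by edgeR or DESeq2 in either genotype (3.54% and 2.77% of genes tested by edgeR), and the smallest unadjusted p among members was 0.0393 (Sav1 in Yap-cKO mice, 0.55 higher in CD4+ cells on the log2 scale, adjusted p = 0.379).

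**Figure D3:**
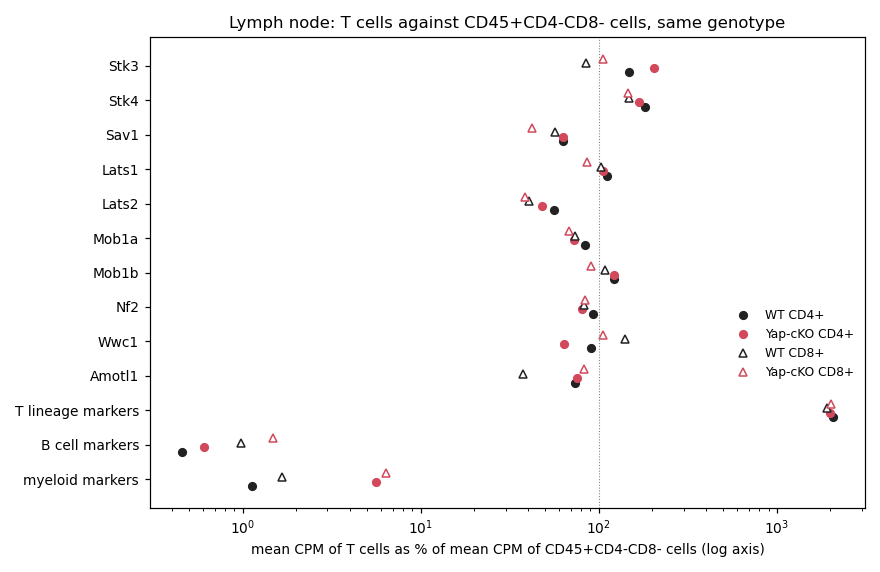
Mean level in TDLN CD4+ and CD8+ cells as a percentage of the mean in TDLN CD45+CD4-CD8- cells (log axis), for members and for marker sums, in each genotype. Member shares lie between 37.4% (Amotl1) and 205% (Stk3), with Wwc1 and Amotl1 near the floor in both populations, whereas B-cell and myeloid marker sums reach at most 6.40%.

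Tumor and lymph node were compared within each population next. In WT CD4+ cells 4 of 10 members were called (37.3% of genes tested): Stk4 and Lats2 were lower in tumors, and Wwc1 and Amotl1 were higher. Stk4 had 801, 518, 679 and 686 CPM in WT CD4+ TDLN cells and 88.3, 172, 198 and 217 CPM in WT CD4+ TILs. The groups did not overlap, as for 45% of genes tested, and the log2 difference was -1.98 (SE 0.311, adjusted p = 0.000284). In sorted bulk RNA, fewer cells of a type and less RNA of a gene per cell cannot be told apart. Lats2 differed by -1.66 (SE 0.330, adjusted p = 0.00149), from a mean of 148 to 46.6 CPM. By adjusted p alone, which 47.1% of genes tested met, Mob1a was lower (-0.95), and Sav1 (0.87) and Nf2 (0.69) were higher.

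WT CD8+ cells gave 5 of 10 called members (37.7% of genes tested). Stk4 had 599, 532, 348 and 678 CPM in TDLNs against 83.5, 151, 196 and 167 CPM in tumors, again without overlap, as for 41.3% of genes tested (log2 difference -1.81, SE 0.316, adjusted p = 0.000791). Lats2 was lower by a similar amount (-1.54, SE 0.381, adjusted p = 0.00663), and Stk3 was higher in tumors (2.54, SE 0.576, adjusted p = 0.0042), from a mean of 2.49 to 13.9 CPM. In WT CD8+ TILs Stk3-201 held 44.1% to 86.3% of Stk3 TPM, against 0% to 25.6% in WT CD8+ TDLN cells. Which cells gave the added Stk3 RNA was not tested.

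T-lineage markers were lower in WT TILs than in WT TDLN T cells as well. When counts were scaled on the 15 T-lineage genes the median of all genes shifted to 1.64 (CD4+) and 1.83 (CD8+). On that scale Stk4 differed by -0.60 (adjusted p = 0.226) in CD4+ and -0.16 (adjusted p = 0.744) in CD8+ cells, and Lats2 by -0.35 (adjusted p = 0.447) and 0.31 (adjusted p = 0.622). Relative to the median of all genes, Stk4 then lay at -2.24 in CD4+ and -1.98 in CD8+ cells (-1.95 and -1.79 with the usual scaling), and Lats2 at -1.999 and -1.52 (-1.63 and -1.52). The Stk4 level and the T-lineage sum had r = 0.91 over 8 T-cell TIL libraries of WT mice and -0.64 over the 8 of Yap-cKO mice, which may share tumors, so this is a description. The parts of T-cell content and of Stk4 per T cell were not tested separately.

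The direction of Lats2 did not rest on T cells alone. In CD45+CD4-CD8- cells, the log2 difference of Lats2 between tumor and TDLN was -2.08 in WT (SE 0.340, adjusted p = 0.000671) and -1.68 in Yap-cKO mice (SE 0.288, adjusted p = 0.000527), Stk3 was higher by 2.69 and 2.74, Wwc1 by 2.17 and 2.87, and Amotl1 by 3.27 and 2.02, so 4 of 10 members were called in each genotype (39.9% and 40.3% of genes tested). Stk4 was lower there only by adjusted p alone (-0.85 and -0.75), which 49.4% and 55.9% of genes tested met. This population itself changed between sites: B-cell markers gave way to myeloid markers, which summed to a mean of 28093 CPM in WT tumors and 1471 CPM in WT TDLNs.

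In Yap-cKO T cells fewer members differed between sites. Among CD4+ cells Stk4 (-1.46, SE 0.391, adjusted p = 0.0234) and Amotl1 (2.93, SE 0.709, adjusted p = 0.0147) were called of 9 tested (18.5% of genes tested), and among CD8+ cells only Amotl1 (3.10, SE 0.940, adjusted p = 0.0396) of 10 (15.9%). Stk4 in Yap-cKO CD8+ cells was lower in tumors by adjusted p alone (-0.86, adjusted p = 0.0238), which 19.9% of genes tested met in either direction. The Yap-cKO calls were not stable to leaving out 1 library: that of Stk4 in CD4+ cells was lost without TDLN replicate 2, 3 or 4 or TIL replicate 2 or 4 (adjusted p up to 0.0871), that of Amotl1 in CD4+ cells without TDLN replicate 3 (0.0537), and that of Amotl1 in CD8+ cells without TDLN replicate 1, 2 or 4 or TIL replicate 2, 3 or 4 (up to 0.112). Without CD8+ TIL replicate 1, 5 members met the call, namely Stk4, Sav1, Lats2, Wwc1 and Amotl1, and without CD8+ TDLN replicate 4 Wwc1 did in place of Amotl1 (2.13, adjusted p = 0.0402), and without CD4+ TIL replicate 1 Lats2 was added (-1.47, adjusted p = 0.024). The WT and Yap-cKO differences were compared directly by an interaction term, and 0 members were called in CD4+ cells (1.36% of genes tested), CD8+ cells (0.422%) or CD45+CD4-CD8- cells (0%). The smallest unadjusted p was that of Amotl1 in CD8+ cells (log2 interaction -3.94, SE 1.13, adjusted p = 0.11, edgeR), and for Stk4 in CD8+ cells the interaction was 0.92 (adjusted p = 0.253). Amotl1 met the call without Yap-cKO CD8+ TIL replicate 3 (adjusted p = 0.0383) and, in CD4+ cells, without Yap-cKO TIL replicate 3 (0.0275) or TDLN replicate 1 (0.048). At an unadjusted p under 0.05 there were 2 members in CD4+ (Amotl1 and Wwc1), 3 in CD8+ (Amotl1, Stk4 and Stk3) and 0 in CD45+CD4-CD8- cells, where 14.8%, 15.6% and 8.38% of genes tested were under it. DESeq2 called 1, 1 and 0 members, and 5.58%, 4.81% and 0.8% of genes tested.

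Amotl1, an angiomotin that scaffolds YAP at junctions, had the largest fold changes of the members in the T-cell tumor comparisons. Its level was 36.8, 33.4, 17.1 and 22.8 CPM in WT CD4+ TILs, 39.3, 50.4, 14.03 and 24.1 CPM in WT CD8+ TILs and 7.11, 5.14, 5.89 and 8.43 CPM in WT CD45+CD4-CD8- TILs. In Yap-cKO tumors it was 1.12, 3.46, 5.28 and 2.08 CPM in CD4+ cells, 1.10, 2.54, 8.26 and 3.35 CPM in CD8+ cells and 1.20, 1.92, 3.69 and 2.11 CPM in CD45+CD4-CD8- cells. All WT values lay above all Yap-cKO values within each population. In TILs the genotypes did not overlap for 17.1% (CD4+), 20.6% (CD8+) and 11.5% (CD45+CD4-CD8-) of genes tested. Both genotypes lay above the TDLN T-cell libraries, none of which exceeded 1.12 CPM, except that the lowest Yap-cKO CD8+ TIL value fell just under that maximum. Between sites 45% and 41.3% of genes did not overlap in WT CD4+ and CD8+ cells, and 26.4% and 23.1% in Yap-cKO ones.

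The genotypes were compared within each population and site, which is the contrast the study was built on. In CD4+ TILs 2 of 10 members were called, both lower in Yap-cKO cells (8.02% of genes tested were called, 6.66% as lower and 1.36% as higher). Amotl1 differed by -3.06 (SE 0.506, adjusted p = 0.00861), 8.33-fold lower. Wwc1 (Kibra), which brings NF2 and LATS together, had 6.39, 7.21, 2.83 and 4.23 CPM in WT CD4+ TILs against 0.225, 0.967, 1.74 and 1.07 CPM in the Yap-cKO ones, and differed by -2.22 (SE 0.590, adjusted p = 0.0436), 4.65-fold lower. For Wwc1 these were 54 to 147 counts in WT and 4 to 29 counts in Yap-cKO libraries, the lowest near the floor of 3. The groups did not overlap for either gene, as for 17.1% of all genes tested. For the other 8 members adjusted p was at least 0.325. The Wwc1 call was lost without replicate 1, 2 or 4 of either genotype (adjusted p 0.0639 to 0.129), whereas that of Amotl1 held without each library in turn.

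In CD8+ TILs Amotl1 was lower (-3.03, SE 0.605, adjusted p = 0.019) and Stk4 was higher in Yap-cKO cells (12.2% of genes tested were called, 3.03% as higher and 9.14% as lower). Stk4 had 83.5, 151, 196 and 167 CPM in WT CD8+ TILs against 503, 265, 300 and 264 CPM in the Yap-cKO ones. The groups did not overlap, as for 20.6% of all genes tested, and the difference was 1.19 (SE 0.304, adjusted p = 0.0333), 2.27-fold. Mob1a (0.84, adjusted p = 0.0505), Wwc1 (-1.42, adjusted p = 0.0603) and Lats2 (1.10, adjusted p = 0.148) missed the threshold. Both calls depended on single libraries: that of Stk4 was lost without replicate 1, 2 or 4 of either genotype (adjusted p 0.0568 to 0.0768) and that of Amotl1 without WT replicate 1 or 2 or Yap-cKO replicate 2 (0.0512 to 0.058). Without replicate 3 of either genotype Wwc1 was called as well (adjusted p 0.0492 and 0.0498). With a term for the replicate number added, the Stk4 and Amotl1 calls were lost, and only 1 of all genes tested was called.

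In CD45+CD4-CD8- TILs 0 members were called by edgeR and 1 by DESeq2 (0.991% of genes tested by edgeR). Amotl1 was nearest (-1.59, SE 0.354, unadjusted p = 0.00103, adjusted p = 0.0616, edgeR), and 3 members had an unadjusted p under 0.05 (Amotl1, Mob1b and Mob1a), as had 17.8% of genes tested. DESeq2 called 3.87% of genes. In TDLNs 0 members were called in CD4+ (0.0462% of genes tested), CD8+ (0.0158%) or CD45+CD4-CD8- cells (0.0596%), 0 had an unadjusted p under 0.05 (1.75%, 0.949% and 2.91% of genes tested had), 0 were called by DESeq2, and adjusted p was at least 0.97 for every member tested. Wwc1 and Amotl1 did not pass the count filter in CD4+ and CD8+ TDLN cells, and Wwc1 did not in CD45+CD4-CD8- TDLN cells. Stk4 differed there by 0.10 (SE 0.231), 0.23 (SE 0.226) and 0.23 (SE 0.215) in turn.

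**Figure D4:**
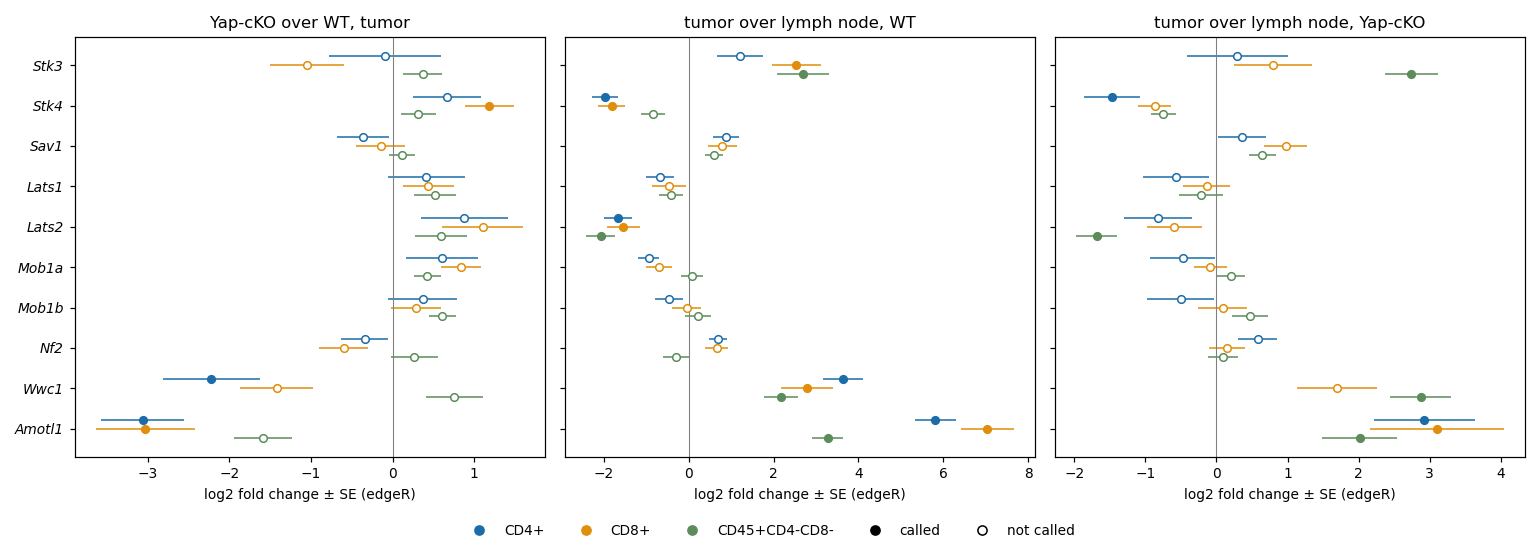
Log2 fold change of each member with its standard error (edgeR) for Yap-cKO over WT in tumors (left) and for tumor over lymph node in WT (middle) and Yap-cKO mice (right), by population, with filled symbols for called members. The filled symbols on the left are Amotl1 and Wwc1 in CD4+ TILs and Amotl1 and Stk4 in CD8+ TILs, and in the middle Stk4 and Lats2 lie left of 0 in T cells while Wwc1 and Amotl1 lie right of it.

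Several marker lists moved with these genotype differences. Beside the melanoma list (9 of 9 genes higher in WT in both T-cell TIL populations, 0 of 9 at 0 counts in any of the 16 libraries), endothelial markers fell from a mean of 274 to 30.5 CPM in CD4+ and from 654 to 11.2 CPM in CD8+ TILs, fibroblast markers from 288 to 27.5 and from 213 to 10.9 CPM, and pericyte markers from 151 to 14.04 and from 150 to 18.2 CPM (exact permutation p = 0.0286 for each, n = 4 against 4). No endothelial, fibroblast or pericyte marker was at 0 in all 4 libraries of a T-cell TIL group. Myeloid markers were higher in Yap-cKO CD8+ TILs (455 against 1337 CPM, exact permutation p = 0.0286).

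The ratio of Amotl1 to the melanoma sum was then read in T-cell TILs. Per 1000 CPM of summed melanoma markers, Amotl1 was 1.99 to 6.62 CPM in the 15 T-cell TIL libraries with over 100 CPM of those markers, with group medians of 2.63 (WT CD4+), 3.14 (WT CD8+), 3.18 (Yap-cKO CD4+) and 4.06 (Yap-cKO CD8+). The remaining library, Yap-cKO CD8+ replicate 1, had 40.4 CPM of melanoma markers and a ratio of 27.1. Over 8 T-cell TIL libraries of a genotype, Amotl1 and the melanoma sum had r = 0.84 in WT and 0.89 in Yap-cKO mice, as a description of libraries that may share tumors. With the summed endothelial, fibroblast and pericyte markers Amotl1 had r = 0.46 in WT and 0.58 in Yap-cKO mice. With the T-lineage sum it had r = -0.83 and 0.17. The source of its RNA was not tested. In CD45+CD4-CD8- TILs the median ratio of Amotl1 was 4.30 in WT and 8.01 in Yap-cKO mice. For Wwc1 the medians in T-cell TILs were 0.50 (WT CD4+), 0.485 (WT CD8+), 1.16 (Yap-cKO CD4+) and 1.85 (Yap-cKO CD8+). The mean log2 level of the 30 melanoma, endothelial, fibroblast and pericyte markers did not overlap between genotypes in any TIL population, so that genotype and these markers cannot be told apart. Wwc1 in CD45+CD4-CD8- TILs did not follow the melanoma sum: its mean was 2.11 CPM in WT tumors against 3.67 CPM in Yap-cKO tumors, and per 1000 CPM of melanoma markers the medians were 1.30 and 10.5.

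**Figure D5:**
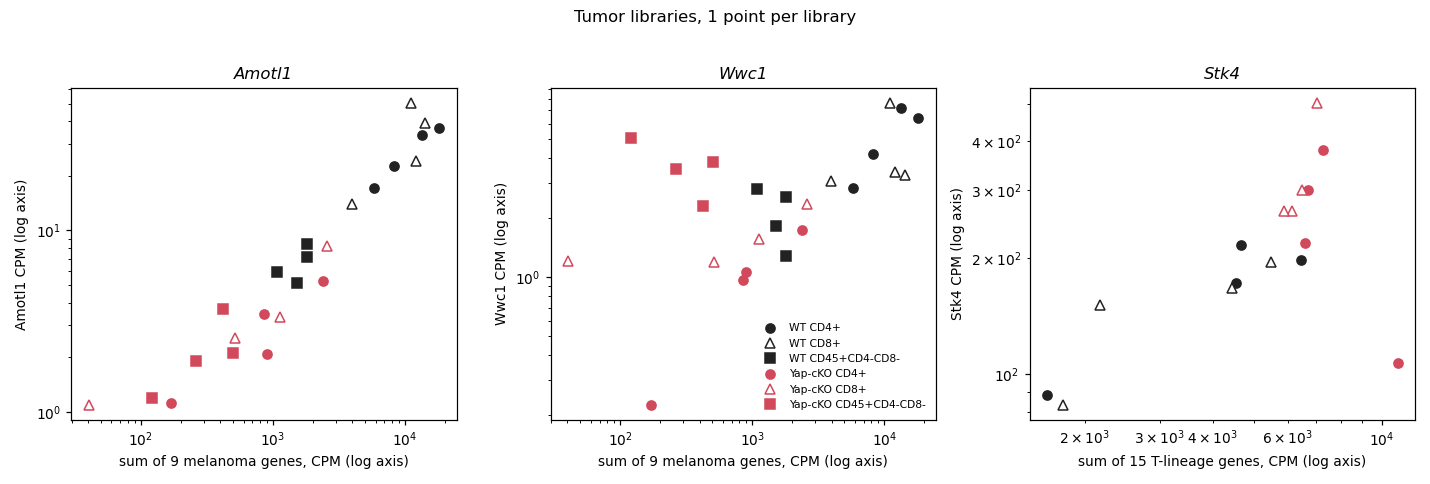
CPM of Amotl1 and Wwc1 in each tumor library against the summed CPM of 9 melanoma genes, and CPM of Stk4 in each T-cell tumor library against the summed CPM of 15 T-lineage genes (all axes log), with 1 point per library by genotype and population. Amotl1 is higher where the melanoma sum is higher in both genotypes, Wwc1 in Yap-cKO CD45+CD4-CD8- cells lies off that line, and for Stk4 the library with the highest T-lineage sum, Yap-cKO CD4+ replicate 3, lies low.

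Stk4 in CD8+ TILs was also read beside the T-lineage genes. On T-lineage scaling, where the median of all genes moved to -1.16 in both T-cell TIL comparisons, the Stk4 difference was 0.09 (adjusted p = 0.862), which lay 1.25 above that median (1.11 with the usual scaling), whereas Amotl1 was lower in Yap-cKO cells (-4.66 in CD4+ and -4.51 in CD8+ TILs) and Wwc1 was lower in both (-3.75 and -2.76). With the 4 Y-linked genes (their mean on the log2 CPM scale) as a covariate 0 members were called in either population, where only 2 (CD4+) and 1 (CD8+) of all genes tested were called, so that fit says nothing about the members.

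The remaining genes of the pathway were read from 8 lists of 74 genes in all. Of all genes tested in CD4+ TILs, 6.66% were called as lower and 1.36% as higher in Yap-cKO cells. In CD4+ TILs the effectors, which receive the LATS signal, were lower in Yap-cKO cells for 4 of 6 tested: Yap1 (-2.58, the floxed gene), Wwtr1 encoding TAZ (-3.01), and Tead1 (-2.24) and Tead4 (-3.38), which encode their DNA-binding partners. Membrane, junction and polarity scaffolds were lower for 5 of 13 tested, among them the Amotl1 and Wwc1 paralogs Amotl2 (-2.83) and Wwc2 (-2.26), with Ptpn14 (-2.85), Tjp1 (-2.71) and Dlg5 (-2.39). Of the LATS and NF2 modulators 1 of 8 was lower, the ubiquitin ligase gene Nedd4 (-2.79), and of the RASSF family 1 of 6 was higher, Rassf6 (3.39). None of the 15 kinases acting beside or above MST, the 12 STRIPAK phosphatase-complex genes, the 4 other MOB genes or the 7 genes of MST1 output in T cells was called. The list medians of log2 change were -2.43 for effectors and -1.55 for scaffolds, beside 0.14 for members and 0.14 for all genes tested. From WT to Yap-cKO CD4+ TILs the mean melanoma sum went from 11382 down to 1079 CPM. Endothelial, fibroblast and pericyte sums were lower as well. Which cells gave the effector and scaffold RNA was not tested, so these differences cannot be assigned to T cells.

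In CD8+ TILs 5 of 6 effectors were lower (Yap1 -2.21, Wwtr1 -4.14, Tead1 -3.25, Tead2 -2.80 and Tead4 -4.93), and so were 5 of 12 scaffolds, including Wwc2 (-2.17), Pard3 (-2.34), Tjp1 (-3.23) and Dchs1 (-5.71), and 3 of 8 modulators, including Nedd4 (-1.90) and Wtip (-2.73). Among the 15 kinases 3 were higher, including Stk26 (1.76) and Taok3 (1.27), and Map4k5 was lower (-1.84). The RASSF, MOB and MST1-output lists each had 1 gene higher, in the last Il7r (1.87), a naive and memory T-cell receptor gene. The genes Amotl2, Ajuba, Tnik, Rassf5 and Mob3c complete these counts and are named after their values were seen. Of all genes tested in CD8+ TILs, 9.14% were called as lower and 3.03% as higher in Yap-cKO cells. The list medians were -3.03 for effectors, -1.76 for scaffolds and 0.84 for MST1 output, beside 0.08 for all genes tested. Here too the mean melanoma sum was lower on the Yap-cKO side, at 1069 against 10367 CPM, and so were the endothelial, fibroblast and pericyte sums. The cells that gave the effector and scaffold RNA were again not tested. In CD45+CD4-CD8- TILs and in the 3 TDLN comparisons 0 genes of any list were called.

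Between sites, genes of the MST1-output list (Foxo1, Foxo3, Klf2, S1pr1, Ccr7, Il7r and Dock8, some of them tied to naive-cell homing) were lower in tumors, as Stk4 was. Called as lower were 5 of 7 in WT CD4+ cells, 7 of 7 in WT CD8+ cells, 3 of 7 in Yap-cKO CD4+ cells and 5 of 7 in Yap-cKO CD8+ cells, where 14.4%, 15.2%, 6.07% and 5% of genes tested were. The T-lineage sum was lower in tumors too, at 4323 against 10998 CPM in WT CD4+ and 3467 against 10182 CPM in WT CD8+ cells. In Yap-cKO cells it was 7862 against 9502 (CD4+) and 6384 against 9555 CPM (CD8+). T-cell content and levels per T cell were not tested separately. Ccr7, the lymph node homing receptor gene, averaged 5243 CPM in WT CD4+ TDLN cells and 348 CPM in WT CD4+ TILs (log2 difference -3.91), and Foxo1 500 and 107 CPM (-2.21). Effectors were higher in tumors for 5 of 7 tested in WT CD4+ and 5 of 6 in WT CD8+ cells (22.9% and 22.5% of genes tested were called as higher), while Vgll4, a TEAD co-factor gene, was lower in both (-1.07 and -1.32). Wwtr1 averaged 0.0547 CPM in TDLNs and 51.3 CPM in tumors in WT CD4+ cells. In the same groups the melanoma sum averaged 11.3 and 11382 CPM, and which cells gave the effector RNA was not tested.

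Genes with the group pattern most like each member were found by Pearson's r of log2 levels over the 12 group means among 13193 genes, as a description with no claim of shared control. For Amotl1 they were Wwtr1, Foxc1 and Cald1 (r = 0.996 for each), the first encoding TAZ. For Stk4 they were the lymphoid transcription factor gene Ikzf1 (r = 0.987), Foxj3 (0.986) and Rc3h1 (0.985), the last encoding the T-cell regulator Roquin-1. Lats2 was nearest to Bicral, Map3k1 and Arhgap25 (0.980 to 0.983), Mob1a to Mfsd14b, Phka2 and Best1 (0.975 to 0.986), Stk3 to Eid1, Hspa13 and Mpp6 (0.972 to 0.982) and Wwc1 to Dennd2a, Hyal1 and Rusc2 (0.977 to 0.990). Nf2 had the loosest match, with Bcr, Tubg2 and Lrrc8d at 0.892 to 0.896, and its group means spanned only 38.9 to 77.8 CPM.

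Among the other low-tier members, Lats1 group means lay between 16.2 and 31.4 CPM, Mob1b between 12.4 and 26.1 CPM and Sav1 between 4.05 and 15.6 CPM, with Sav1 highest in CD45+CD4-CD8- TILs, where its 8 values ran from 12.9 to 16.7 CPM. Nf2 was highest in WT CD4+ TILs (63.3, 108, 71.4 and 68.9 CPM) and WT CD8+ TILs (41.4, 96.4, 53.1 and 75.7 CPM), while its Yap-cKO values were 71.9, 64.8, 47.6 and 42.7 CPM in CD4+ and 48.5, 39.5, 58.4 and 25.8 CPM in CD8+ cells. These Nf2 groups overlapped, and the genotype differences were -0.34 (adjusted p = 0.48) and -0.60 (adjusted p = 0.181). Where genes overlap on the genome, reads could be shared: Stk4 overlaps Tomm34 on the opposite strand (median 1960 counts over 48 libraries) and Sav1 overlaps Atl1 (median 37 counts), and the strand setting of the quantification is not given in the sources used here.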

How the data were processed

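RNA was sequenced from 48 libraries (SMART-Seq v4, Illumina HiSeq, paired ends). The authors quantified transcripts with Salmon 0.9.1 per the submitters' notes, which also name Trimmomatic, FastQC and mm10. The deposited files give, for each transcript, an expected count, a TPM value, a length and an effective length. Expected counts deposited by the authors were summed per gene with GENCODE M21 gene names (111787 of 112092 transcripts matched, and the unmatched held 0.0488% to 0.18% of counts) and rounded. TPM deposited by the authors was summed without change.

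Groups came from the labels. A gene entered a fit if 4 or more of its libraries had 10 or more counts, and was tested with edgeR 4.0.16 (R 4.3.3; TMM, quasi-likelihood F test, genotype, tissue or cell type as the term, Benjamini-Hochberg over all genes tested), only the groups compared entering a fit. A call needed an adjusted p under 0.05 and a log2 change above 1 in size. Levels across samples are CPM with TMM over 48 libraries. Marker sums were compared by exact permutation of means. The methods state that TILs were sorted from each tumor, but not which libraries came from the same mouse or whether nodes were pooled, so p-values measure the spread between these samples. Alternatives were DESeq2 1.42.0, no count filter, adjusted p alone, a replicate block, transcript-length offsets, T-lineage scaling, covariates and leaving out each library. The test was tried on simulated data first. All 10 members are named, and of the other pathway genes at most 15 called ones with the smallest adjusted p per comparison. Of the pathway lists, 1 gene is not reported here and was left out of its counts. The members and gene lists were chosen with earlier results of these data known. The replicate numbers did not pair samples by the criterion used (every same-number correlation over 0.1), which does not show that they came from different mice. Replicates were compared before averaging, and 0 of 72 pairs within a group were identical.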

Additional observations from a re-analysis of the deposited data

Results flagged for a closer look

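In 13 of 120 groups of 4 values (10 members in 12 groups), 1 library lay far from the other 3 by Dixon's gap, against about 1 in 20 expected by chance. Stk3, the low-abundance MST kinase, gave 3 of these, all in WT TDLNs: 8.97 CPM in CD4+ replicate 4, 5.44 CPM in CD8+ replicate 4 and 7.74 CPM in CD45+CD4-CD8- replicate 2, each the highest of its group. Mob1b was highest in that last library too (24.1 CPM).

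In tumors, Yap-cKO CD8+ replicate 1 was the highest of its group for Stk4 (503 CPM) and Lats2 (161 CPM), and it also held the least melanoma RNA of the 16 T-cell TIL libraries (40.4 CPM). Yap-cKO CD45+CD4-CD8- TIL replicate 4 was the lowest for Lats1 (15.4 CPM) and Mob1a (376 CPM). WT CD4+ TILs had a high Lats1 in replicate 4 (25.3 CPM) and a low Lats2 in replicate 1 (18.6 CPM). Sav1 was highest in WT CD45+CD4-CD8- TIL replicate 4 (16.7 CPM), Wwc1 in WT CD8+ TIL replicate 2 (7.64 CPM) and Nf2 in Yap-cKO CD8+ TDLN replicate 4 (49.4 CPM).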

How the results depend on the processing

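Of the 2830 member fold changes recomputed under alternatives, 50 newly passed the threshold, 45 no longer passed it and 157 changed sign, 105 of them when 1 library was left out. Of the sign changes, 152 had no call in either fit, among them Lats1 (-1.99) and Lats2 (-1.81) in CD4+ TILs between genotypes with the non-T covariate and Lats1 (0.89 and 1.31) in WT CD4+ and CD8+ cells between sites with T-lineage scaling. The causes were not tested. The 5 sign changes that involve a call were Mob1a (-2.53) and Mob1b (-2.12) in CD4+ TILs and Amotl1 (0.035) in CD8+ TILs between genotypes with the non-T marker covariate, and Lats2 (0.31) and Mob1b (1.88) between tumor and TDLN in WT CD8+ cells with T-lineage scaling, which moved the median of all genes there to 1.83. The non-T covariate did not overlap between genotypes, so its fit cannot tell them apart. Counts of called members moved as follows. Between genotypes in CD4+ TILs, 2 became 1 with the replicate block, 1 with transcript-length offsets and 0 with the Y-linked covariate. In CD8+ TILs, 2 became 0 with the replicate block, 4 (all lower) with T-lineage scaling and 0 with the Y-linked or the non-T covariate. In CD45+CD4-CD8- TILs, 0 became 1 with DESeq2 and 1 with no count filter. Between sites, adjusted p alone gave 7 in place of 4 in WT CD4+ cells and 3 in place of 1 in Yap-cKO CD8+ cells, where DESeq2 gave 2, offsets 0 and T-lineage scaling 3. T-lineage scaling gave 1 in place of 2 in Yap-cKO CD4+ cells. Adjusted p alone gave 3 in place of 1 in each comparison of CD45+CD4-CD8- with T cells. For the interaction, DESeq2 gave 1 in place of 0 in CD4+ and in CD8+ cells, and no count filter 1 in CD8+ cells. Over all genes tested, the genotype comparison called 1139 genes in CD4+ TILs, but 2128 with DESeq2, 1723 with no count filter, 3212 with T-lineage scaling, 2 with the Y-linked covariate and 3323 with the non-T covariate. In CD8+ TILs it called 1719, but 1 with the block, 5828 with T-lineage scaling, 1 with the Y-linked and 0 with the non-T covariate, and in CD45+CD4-CD8- TILs 135, but 527 with DESeq2. Leaving out 1 library at a time gave 1 to 2 (CD4+ TILs) and 0 to 3 (CD8+ TILs) between genotypes, 0 to 3 (Yap-cKO CD4+) and 0 to 5 (Yap-cKO CD8+) between sites, 4 to 6 in WT CD4+ and 4 to 5 in WT CD8+ cells, 0 to 1 for CD45+CD4-CD8- against T cells in WT mice and 0 to 1 for the interactions in CD4+ and CD8+ cells. The replicate block changed no other count by over 1.5 times. Same-number correlations of deviations ranged from -0.69 to 0.53 between genotypes, where the libraries cannot come from the same mouse. Within a genotype they ran from -0.40 to 0.45 between sites and from -0.016 to 0.41 among TDLN populations. WT replicate 4 was the library low in Y-linked RNA in all 6 WT groups. Whether equal numbers mark the same mouse was not settled, and the main fits did not pair them. Depth limits Wwc1 and Amotl1 in TDLNs, which had at most 23 counts in T cells there.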

Other observations

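For Lats1, too, the median share of a transcript differed between populations, though the ranges overlapped. Lats1-203 has the same coding start as the main transcript Lats1-202, but in Lats1-203 that start lies in the first exon. Its median share of Lats1 TPM was 24.9% in the 16 CD45+CD4-CD8- libraries and 6.90% in the 32 T-cell libraries. It had less than 1 read in 15 of 32 T-cell libraries and in 2 of 16 CD45+CD4-CD8- libraries, with no test. The share ranged from 0% to 42.2% in T-cell libraries and from 0.0136% to 41.9% in CD45+CD4-CD8- libraries. These are again Salmon's estimates for overlapping transcripts.

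Within groups of replicates, members' deviations from the group mean were set beside a property of the library, a measure chosen after seeing the data. For each library the deviations of 7512 genes from their group means were correlated with transcript length, giving r from -0.56 to 0.58. Over 24 TDLN libraries, the members' own deviations had r with this value of 0.92 for Lats1, 0.90 for Mob1b, 0.87 for Stk3, 0.86 for Mob1a and 0.82 for Stk4. For the others r was 0.52 for Amotl1, 0.31 for Lats2, 0.23 for Sav1, -0.22 for Nf2 and -0.36 for Wwc1. Over 24 TIL libraries the order differed, with 0.86 for Lats1, 0.83 for Lats2, 0.78 for Stk4, 0.73 for Mob1a and 0.68 for Nf2. Lower values there were 0.49 for Mob1b, 0.25 for Stk3, 0.12 for Sav1, -0.21 for Amotl1 and -0.36 for Wwc1. The libraries share groups and may share mice, and the values are a description. Ptprc, a long-transcript gene of all leukocytes, had r of 0.95 with Lats1 and 0.94 with Stk3 over the TDLN libraries.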
